A study of Mus musculus with 3 samples.

Results

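Of the 19549 KAP1 peaks listed for proliferating C2C12 myoblasts, 6203 stood apart from H3K9me3, the histone mark most closely tied to KAP1. They made up 31.7% of the list (95% Wilson interval 31.1 to 32.4). A peak was taken as distant when no H3K9me3 region lay within 10 kb of it, its score was 800 or less, and it was not part of a chain of 10 or more KAP1 peaks with gaps of 10 kb or less. They are set here against the 8623 KAP1 peaks (44.1% of the list) that shared at least 1 bp with an H3K9me3 region. The remaining peaks were 4281 that lay within 10 kb of H3K9me3 without touching it, and 442 that were distant but outside the score limit (232 peaks) or the chain limit (271 peaks, 61 of them outside both). Of the 8623 overlapping peaks, 64 were outside the score or chain limit, and they were kept unless stated.

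The data are chromatin immunoprecipitation with sequencing (ChIP-seq) from C2C12, an established myoblast line from the C3H mouse strain, grown in serum-rich medium and not placed in differentiation medium. One antibody was a laboratory-made rabbit polyclonal against KAP1 and the other was against H3K9me3, with 1 library each. A no-antibody library of the same cells is not analysed here. With 1 library per antibody there is no replicate, so intervals cover counting error over peaks only and no test between conditions was made. Neighbouring peaks are not independent, so the intervals are too narrow. Read depth is unknown, and absence of a region from either list cannot be read as absence of binding or of the mark.

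KAP1, also named TRIM28, is a scaffold protein without DNA-binding specificity of its own. KRAB zinc finger proteins recruit it to DNA, often at transposable elements, and it brings in SETDB1, the methyltransferase that deposits H3K9me3, as well as HP1 proteins and a deacetylase complex. KAP1 can be phosphorylated, and it has also been found at promoters and with other DNA-bound factors, so sites without H3K9me3 are a known class. The series was designed around the role of KAP1 and its phosphorylation in MyoD function during muscle differentiation. Regions are named by their mm9 positions, counted from 1, since no gene annotation or sequence of that build was used here.

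Distance from H3K9me3 set the choice of these peaks and is given as a description. The median distance to the nearest H3K9me3 region was 40.7 kb, with an interquartile range of 22.0 to 78.4 kb. Between 10 and 20 kb lay 1339 of the distant peaks, between 20 and 50 kb 2290, between 50 and 100 kb 1484, and between 100 and 200 kb 826. Only the last 264 (4.26%) were more than 200 kb away. Within 1 Mb on either side, every distant peak had at least 1 H3K9me3 region, with a median of 27 regions (interquartile range 20 to 36), against 30 (23 to 40) around overlapping peaks. Within 100 kb the medians were 2 regions around distant peaks and 4 around overlapping peaks, and 1102 distant peaks (17.8%) had none. An overlapping peak always counts the region it touches, and the rule empties the 10 kb around a distant peak. The contrast in these counts is thus partly set by the choice of the groups.

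The 3 distant peaks farthest from the mark were all on chromosome 9. They stood at 29085094 to 29085640, which was 943.4 kb away, at 40706793 to 40707430, 834.8 kb away, and at 40538915 to 40539309, 667.0 kb away. A pair on the X chromosome followed, at 122063112 to 122063387 and 122064297 to 122064735, 595.6 and 594.2 kb away. Their scores lay between 77.2 and 119.1, against an interquartile range of 79.7 to 121.7 over all distant peaks. At the limit itself, the nearest peaks kept were on chromosome 4 at 60581261 (10013 bp away) and on chromosome 2 at 22868860 (10028 bp). The nearest left out were on chromosome 14 at 54748027 (9997 bp) and on chromosome 16 at 61346230 (9985 bp).

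Among distant peaks, score and width varied little with the distance from H3K9me3, while the share of single peaks varied somewhat more. The median score was 94.1 at 10 to 20 kb, 93.0 at 20 to 50 kb, 95.04 at 50 to 100 kb, 94.3 at 100 to 200 kb and 92.7 beyond 200 kb. The 95% intervals of these 5 medians all overlapped. The median width was 582, 581, 586, 574 and 571.5 bp in the same order, again with overlapping intervals. Across the 6203 peaks, score and distance had a Spearman's rho of 0.00737, given without a test because the points share a library. The 4281 peaks that lay within 10 kb without touching the mark had a median score of 94.1 and a median width of 626 bp. Their width was above every distance class of the distant peaks, while their score was inside the range of those classes. Peaks with no other KAP1 peak within 10 kb, called single below, made up 69.6% of the class at 20 to 50 kb (95% Wilson interval 67.7 to 71.5) and 75.5% of that at 50 to 100 kb (73.2 to 77.6), intervals that do not overlap. The share was 71.4% at 10 to 20 kb, 72.2% at 100 to 200 kb and 75.8% beyond 200 kb, so it did not climb evenly with distance. Of the peaks within 10 kb that did not touch the mark, 48.9% (47.4 to 50.4) were single.

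The H3K9me3 list itself is a filtered one. Its regions carry call numbers in genome order that run to 46867 for 39526 listed regions, so some numbered calls are left out of it. Such a call could lie close to a peak counted here as distant. A listed region stood on both sides of 6199 of the distant peaks. For 4455 of these (71.9%, interval 70.7 to 73.0) the flanking regions had consecutive numbers, so no unlisted call lay between them. For 1121 peaks (18.1%) 1 number was missing between the flanks, and for 623 (10.05%) 2 or more, where the position of the missing calls is unknown. Over all 21719 pairs of neighbouring H3K9me3 regions more than 20 kb apart, 84.4% were numbered consecutively. These pairs are counted once each, while several KAP1 peaks can share a pair of flanks. Counting by peak can also give more weight to long gaps, where more numbers can be missing. The shares of 71.9% and 84.4% are therefore not like for like. The H3K9me3 regions nearest to distant peaks, 4435 in all, had a median width of 607 bp and a median score of 53, the same as the whole list. The 6039 regions nearest to overlapping peaks had medians of 1683 bp and 146. These regions were picked by overlap, which a wide region meets more easily, so the choice itself can favour wide regions among them.

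Distant peaks had lower KAP1 scores than peaks with the mark. The score is the authors' own, has no stated unit, and is no lower than 70 in this list. Its median was 93.7 in distant peaks (interquartile range 79.7 to 121.7) and 135.0 in overlapping peaks (93.55 to 221.1). The difference of medians was -41.3 (95% interval -43.8 to -38.9), and -40.8 with overlapping peaks held to the same score and chain limits. Scores under 80, close to the lowest in the list, made up 25.75% of distant peaks (interval 24.7 to 26.9) and 11.7% of overlapping peaks (11.1 to 12.4). Scores of 300 or more were found in 201 distant peaks (3.24%) and in 1166 overlapping peaks (13.5%). The median was lower in distant peaks on each of the 20 chromosomes other than Y. There it ranged between 87.2 and 104.4 for distant peaks and between 121.2 and 153.0 for overlapping peaks, so the ranges did not meet. The rule capped the score of distant peaks at 800, and the score follows from the same library that chose them.

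The 5 distant peaks with the highest scores were each single, with no other KAP1 peak within 10 kb. The first, with a score of 795.0, covered bases 74929962 to 74931036 of chromosome 9. The second, at 785.2, covered 116259460 to 116260894 of chromosome 5. Chromosome 7 held those with scores of 772.6 (bases 116689231 to 116690555) and 760.4 (35944675 to 35945947), and chromosome 14 the one between them, at 769.8 (27506736 to 27508156). All were between 1075 and 1435 bp wide, well above the median of the distant peaks. Just outside the score limit stood distant peaks on chromosome 17 at 36078037 (score 809.0) and on chromosome 3 at 96261595 (821.9), which were in chains of 3 and 4 peaks.

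Distant peaks were also narrower. The median width was 581 bp (interquartile range 486 to 709) in distant peaks and 732 bp (585 to 975) in overlapping peaks, a difference of -151 bp (interval -158.8 to -143.8). Widths of 1 kb or more were found in 6.63% of distant peaks (interval 6.03 to 7.27) and in 23.4% of overlapping peaks (22.5 to 24.3). Wider peaks score higher in both groups, with a Spearman's rho of 0.489 in distant and 0.690 in overlapping peaks. Width was therefore also compared inside 8 classes of score. Distant peaks were narrower in each of them, by 22 bp at scores of 70 to 80 (502 bp in distant and 524 bp in overlapping peaks) and by 355 bp at scores of 300 to 800 (866 bp in distant and 1221 bp in overlapping peaks). Weighted by the scores of the distant peaks, the difference was -63.4 bp (interval -70.8 to -54.8), which is smaller than the unmatched one. A wider peak also has more bases with which to meet an H3K9me3 region, so the choice of the groups can itself favour wide peaks among the overlapping ones.

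**Figure D1:**
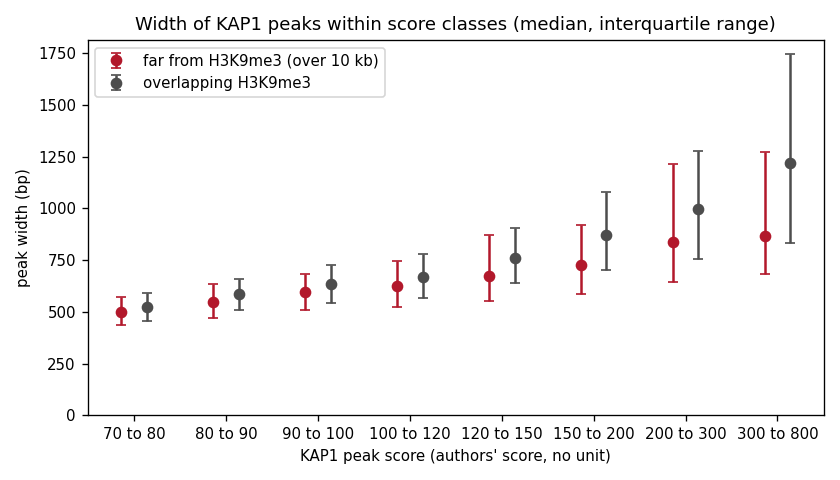
Width in bp of distant (red, left) and overlapping (grey, right) KAP1 peaks in 8 classes of the authors' score; points are medians and bars the interquartile range over peaks. Distant peaks have the lower median in every class, 502 bp beside 524 bp of overlapping peaks in the lowest and 866 bp beside 1221 bp in the highest.

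At widths of 2 kb or more distant peaks were still the rarer, with 61 (0.983%) against 227 overlapping peaks (2.63%). Only at 3 kb or more were the shares in the other order. Calls of that width numbered 26 among distant peaks (0.419%, interval 0.286 to 0.613) and 19 among overlapping peaks (0.220%, 0.141 to 0.344). Those intervals overlap. Under the same score and chain limits 8 overlapping peaks (0.0935%, interval 0.0474 to 0.184) were that wide, an interval that does not overlap that of distant peaks. The 26 were gathered in few places. Chromosome 8 held 9 of them and chromosome 5 held 8. On chromosome 5 all 8 lay between 14980193 and 15220724, and on chromosome 8 all but 1 lay between 19701950 and 20025034. All 17 were in chains of 2 or 4 peaks, and of the 26 in all 21 were in chains of 2 or more. The widest distant peak, bases 56198419 to 56209090 of chromosome 8, spanned 10672 bp. It scored 488 and had another KAP1 peak 173 bp away. The next were a pair only 95 bp apart on chromosome 11, at 3084135 to 3090716 and 3090812 to 3097154, with scores of 90.9 and 290.4. Chromosome 8 also held the remaining pair, bases 19701950 to 19708105 (score 439.9) and 19883730 to 19889816 (score 124.4). Very wide calls thus included some with scores near the median of 93.7 of all distant peaks.

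Spacing differed widely between the groups. Of the distant peaks 4466 (72.0%, interval 70.9 to 73.1) were single, against 2317 of the overlapping peaks (26.9%, 25.9 to 27.8), a difference of 45.1 percentage points (interval 43.7 to 46.6). The nearest other KAP1 peak was a median of 38.9 kb away for distant peaks (interquartile range 6.62 to 102.9 kb) and 1.41 kb away for overlapping peaks (0.347 to 14.8 kb). A neighbour within 1 kb was found for 10.8% of distant peaks and 43.3% of overlapping peaks. Chains of 4 to 9 peaks held 4.69% of distant peaks and 30.9% of overlapping peaks. The difference in the single share was present in every class of score, between 34.5 and 47.75 percentage points. It was 39.1 points (interval 37.4 to 40.7) when weighted by the scores of the distant peaks. Single peaks themselves were spaced alike in both groups, with a median of 66.9 kb to the next KAP1 peak in distant and 66.4 kb in overlapping single peaks.

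**Figure D2:**
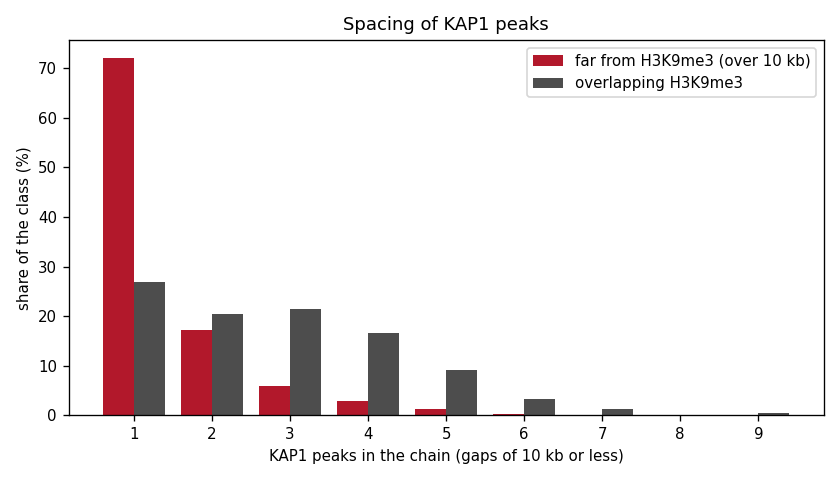
Share in % of distant (red, left) and overlapping (grey, right) KAP1 peaks by the number of KAP1 peaks in their chain, with gaps of 10 kb or less; longer chains of overlapping peaks are not drawn. Single peaks make up 72.0% of the distant and 26.9% of the overlapping peaks.

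Where distant peaks did stand in chains, those chains were short and mostly free of other kinds of peak. The rule itself favours both traits. It leaves out chains of 10 or more peaks. A distant peak also lies more than 10 kb from the mark, and 10 kb is the largest gap inside a chain. An overlapping peak can thus seldom be its direct neighbour in a chain. The 1737 distant peaks that were not single lay in 804 chains, of which 660 held distant peaks alone and 504 of these were pairs. Another KAP1 peak within 10 kb of the mark but not touching it stood in 109 of the 804 chains, and an overlapping peak in 22. The chains of distant peaks alone spanned a median of 4.62 kb, against 5.02 kb for the 1627 chains made up of overlapping peaks alone. Inside chains the gap to the nearest KAP1 peak was a median of 1882 bp for distant peaks (interquartile range 518 to 4138) and 723 bp for overlapping peaks (209 to 1908). Counting every peak, chained or not, the nearest KAP1 peak was itself distant for 60.5% of distant peaks, overlapping for 22.4% and near the mark without touching it for 15.9%. For overlapping peaks the nearest KAP1 peak was distant in 10.0% and overlapping in 74.8%. The rule that chose distant peaks favours neighbours of the same kind, since neighbours share their distance from the mark.

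The longest chain of distant peaks held 8, in 18.5 kb of chromosome 15 at 66707437 to 66725929. In order of position their scores were 108.2, 194.2, 127.3, 112.3, 91.4, 210.3, 127.3 and 80.1. The peaks with the highest scores, the second and the sixth, had the same width of 819 bp, and the peak that followed each of them was 588 bp wide with a score of 127.3. The peaks of 819 bp differed in score, at 194.2 and 210.3. Over all scores, 3937 of the 6203 distant peaks (63.5%) shared width and score exactly with some other KAP1 peak, against 41.1% of overlapping peaks. At scores of 100 or more, as in these peaks, the shares were 39.3% of distant and 26.3% of overlapping peaks. Such matches can lie anywhere in the list, so the shares do not tell how often they fall in the same chain. That was not tested. The next chain held 7 distant peaks in 18.5 kb of the X chromosome at 31329481 to 31347964. One of them scored 494.6 and the others between 73.2 and 151.7. A chain of 6 on chromosome 15 at 102773700 to 102815102 was looser, with 41.4 kb for 6 peaks, gaps of 6293 to 9177 bp and no score above 91.85. Of 12 chains with 5 distant peaks, the first by position ran over bases 47401366 to 47408416 of chromosome 2, and the next over 23072612 to 23079753 of chromosome 3. No distant peak stood in a chain of 9. The smallest chains left out, of 10 peaks, included peaks on chromosome 19 at 5828278 (score 78.3) and 5840685 (score 70.25).

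The most isolated distant peak was on chromosome 12 at 29320574 to 29321093, with 1401.3 kb to the next KAP1 peak. The others were on the X chromosome at 90967846 (964.2 kb), chromosome 19 at 17214732 (918.2 kb), chromosome 6 at 70681296 (901.1 kb) and chromosome 9 at 47434064 (892.3 kb). Their scores lay between 70.4 and 81.5, near the bottom of the list.

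Most of the genome lies far from the listed H3K9me3 regions, and KAP1 peaks were thinly spread there. Bases more than 10 kb from any H3K9me3 region made up 2008.3 Mb, or 77.8% of the 2580.8 Mb between the first and last listed bases of the chromosomes. They held 34.0% of all KAP1 peaks, 3.31 per Mb, against 7.58 per Mb over the whole span. Assembly gaps and sequence to which reads cannot be assigned were not taken out of these lengths.

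By chromosome, distant peaks were densest on chromosome 15, and chromosome 11 came second. Chromosome 15 held 434 distant peaks, 4.32 per Mb of its span (95% Poisson interval 3.92 to 4.75), against 2.40 per Mb over all chromosomes (2.34 to 2.46). Chromosome 11 held 377, or 3.17 per Mb (2.86 to 3.51). The lowest density per Mb of span was on the X chromosome, with 327 distant peaks and 2.00 per Mb (1.79 to 2.23). It was close to the 2.00 of chromosome 7 (1.78 to 2.24) and the 2.01 of chromosome 8 (1.77 to 2.27). Per Mb more than 10 kb from H3K9me3, X was not the lowest. There it held 2.593, against 2.382 on chromosome 7, 2.465 on chromosome 8 and 2.586 on chromosome 16, with overlapping intervals. Chromosome 15 was dense in KAP1 peaks as a whole, with 11.85 per Mb, against 7.58 over all chromosomes. Peaks within 10 kb of the mark that did not touch it stood there at 3.76 per Mb (3.39 to 4.16), against 1.66 over all chromosomes (1.61 to 1.71). As a share of the KAP1 peaks of a chromosome, distant peaks came to 42.2% on chromosome 11 (39.0 to 45.5), 40.0% on chromosome 19 (35.3 to 44.8), 36.4% on chromosome 15 (33.75 to 39.2) and 35.9% on chromosome 2 (33.2 to 38.7). By that measure chromosome 15 did not stand first. The share was lowest on X, at 24.2% (22.0 to 26.6). On Y there were 8 distant peaks in 2.75 Mb, too few to rank. Overlapping peaks were spread otherwise. Their density was 3.70 per Mb on chromosome 15 (3.33 to 4.10), 2.80 on chromosome 11 (2.51 to 3.12) and 3.86 on X (3.57 to 4.18), against 3.34 over all chromosomes. Chromosomes 15 and 11 were the only ones with more distant than overlapping peaks. There were 434 distant and 372 overlapping peaks on chromosome 15, 377 distant and 333 overlapping peaks on chromosome 11, and 327 distant and 632 overlapping peaks on X.

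**Figure D3:**
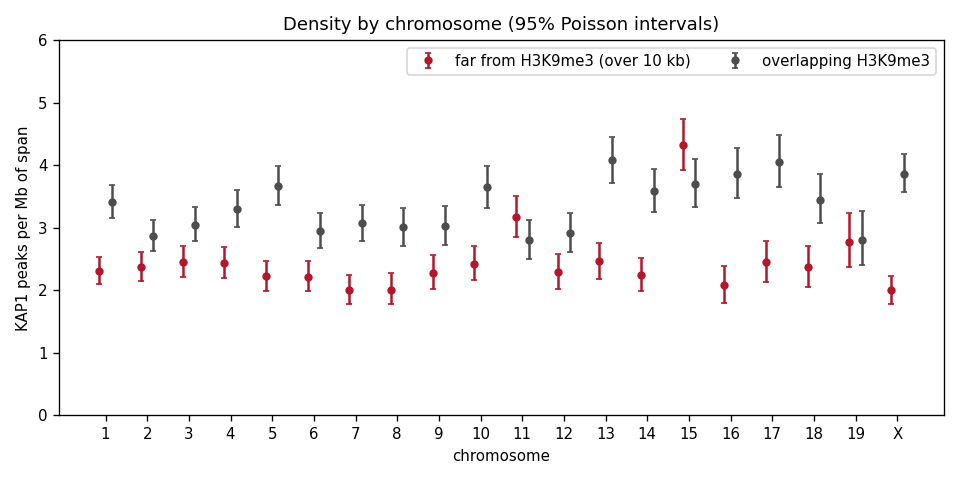
Distant (red, left) and overlapping (grey, right) KAP1 peaks per Mb of chromosome span, with 95% Poisson intervals over peaks; Y, with 8 distant peaks, is left out. Distant peaks reach 4.32 per Mb on chromosome 15 and 3.17 on chromosome 11, and lie between 2.00 and 2.78 on the other chromosomes drawn.

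Chromosome 15 also had the least room for distant peaks. Its stretches more than 10 kb from H3K9me3 covered 61.1% of its span, the lowest share of any chromosome, and held 7.07 distant peaks per Mb (6.42 to 7.77), against 3.09 over all chromosomes (3.01 to 3.17). As a share of all peaks of a group, chromosome 15 took 6.997% of distant peaks and 4.31% of overlapping peaks, a difference of 2.68 percentage points (1.93 to 3.46). It was 5.60 points (4.33 to 6.98) with the upper 50% of KAP1 peaks by score. With the limit moved to 50 kb the difference in share was -0.507 points (-1.32 to 0.401). Chromosome 15 is also dense in the mark, with 2941 of the 39526 H3K9me3 regions in 100.5 of the 2580.8 Mb. Its length more than 50 kb from the mark was not measured. The share at 50 kb therefore does not show whether distant peaks are denser there. For X the shares were 5.27% of distant and 7.33% of overlapping peaks, a difference of -2.06 points (-2.835 to -1.27). It was -0.461 (-1.25 to 0.316) with only the upper 50% of H3K9me3 regions by score. It was -3.06 (-4.055 to -1.98) with the upper 50% of KAP1 peaks, and -3.24 (-4.03 to -2.43) for distant peaks without an unlisted H3K9me3 number at their flanks.

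The distant peaks of chromosome 15 differed from those of the other chromosomes in more than number. Their median score of 104.4 (interval 101.2 to 109.5) and median width of 635 bp (614 to 653) were the highest of the 20 chromosomes other than Y. Only 53.9% of them (49.2 to 58.55) were single, whereas on the other 19 the share was between 66.3% on chromosome 13 and 80.9% on chromosome 19. Overlapping peaks of chromosome 15 showed no such shift, with a median score of 127.0, a median width of 714 bp and a single share of 31.7%, each within the range of the other chromosomes. The number of copies of chromosome 15 in these cells was not measured, and whether it enters these values was not tested.

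**Figure D4:**
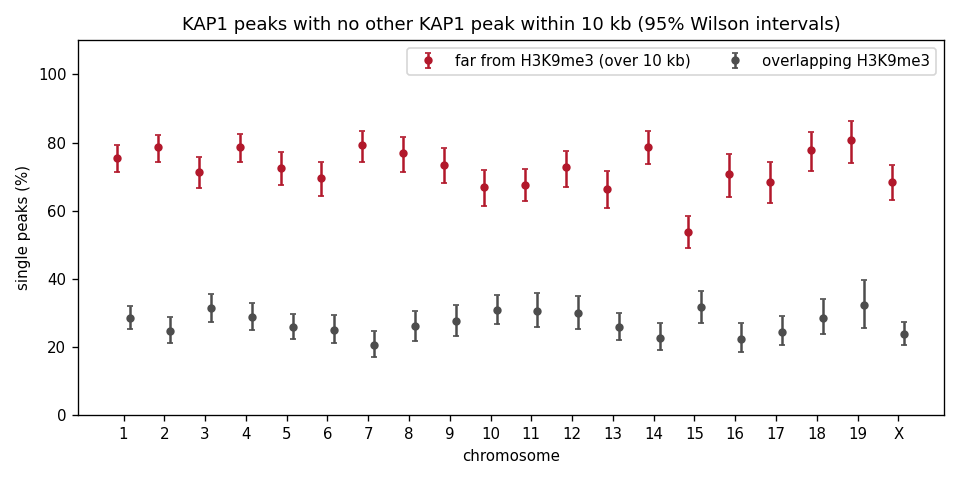
Share in % of distant (red, left) and overlapping (grey, right) KAP1 peaks with no other KAP1 peak within 10 kb, by chromosome, with 95% Wilson intervals over peaks; Y is left out. Distant peaks are above overlapping peaks on all 20 chromosomes drawn, and chromosome 15 has the lowest share of the distant peaks, 53.9%.

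Counts of distant and overlapping peaks were nearly unrelated over windows of 1 Mb. Of 2593 windows, 1733 held both kinds, 395 held distant peaks alone, 381 overlapping peaks alone and 84 neither. The median window held 2 distant peaks and 3 overlapping peaks. Across windows the counts of distant and overlapping peaks had a Spearman's rho of -0.0320. The count of H3K9me3 regions had a rho of 0.0129 with distant peaks and 0.450 with overlapping peaks. These correlations are descriptions over windows of the same libraries, and distant peaks are kept out of the 10 kb around each H3K9me3 region by definition. An overlapping peak has an H3K9me3 region at its own position by definition, which favours a positive rho. The values of 0.0129 and 0.450 are therefore not like for like. The 259 windows (10%) richest in distant peaks held 30.8% of them (interval 29.65 to 31.95), and the 259 richest in overlapping peaks held 29.9% of those (28.9 to 30.9). The variance of the count over windows was 2.17 times its mean for distant peaks and 2.87 times for overlapping peaks. The mean counts differ, at 2.39 distant and 3.33 overlapping peaks per window, and a lower mean by itself raises the share in the richest windows, so the shares do not rank the concentration.

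**Figure D5:**
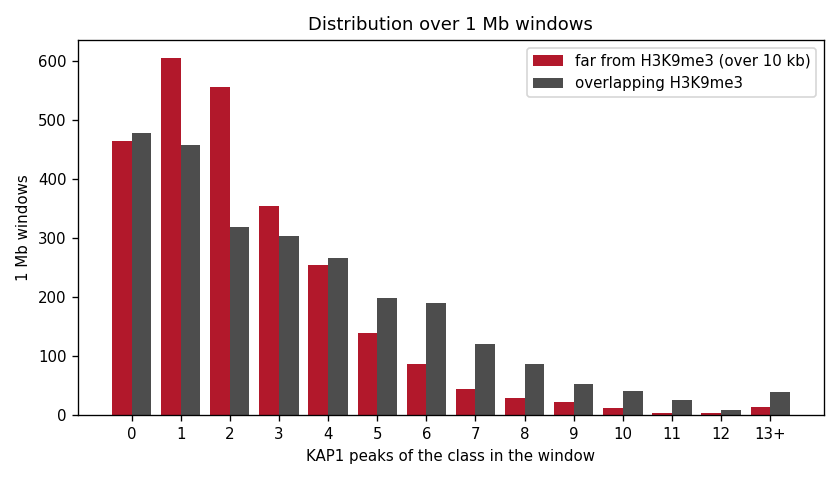
Number of 1 Mb windows, of 2593, by how many distant (red, left) or overlapping (grey, right) KAP1 peaks they hold. Windows with 1 or 2 peaks are more numerous for distant peaks, and 36 windows hold 10 or more distant peaks, against 117 for overlapping peaks.

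The windows richest in distant peaks held excluded peaks as well or lay on chromosome 15. The first was 23 to 24 Mb on chromosome 13 with 22 distant peaks, next to 30 peaks that were distant but outside the score or chain limit and 8 that overlapped H3K9me3. The third, 21 to 22 Mb of the same chromosome, held 17, with 26 outside a limit. The second was 102 to 103 Mb on chromosome 15, with 20 distant peaks, none outside a limit and 1 overlapping peak. It was followed by 76 to 77 Mb on chromosome 15 with 16 and by 96 to 97 Mb on chromosome 3 with 15. Windows with 5 or more distant peaks and no overlapping peak numbered 66. Those with the most were 66 to 67 Mb on chromosome 15, with 12 distant peaks among 13 KAP1 peaks, and 80 to 81 Mb on the same chromosome, with 11 among 14. The reverse, 5 or more overlapping peaks and no distant peak, was found in 162 windows, led by 8 to 9 Mb on chromosome 7 with 19 and by 89 to 90 Mb on X with 18. These windows without the other kind were picked by their counts.

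Along the chromosomes, distant peaks made up a smaller part of the KAP1 peaks at the centromeric end. Mouse chromosomes have the centromere at the end where positions begin. Each chromosome other than Y was cut into 10 equal parts, and the parts were summed over chromosomes. Part 1, at the centromeric end, held 9.72% of distant peaks (interval 9.01 to 10.5) and 12.85% of overlapping peaks (12.2 to 13.6). Distant peaks were 26.1% of all KAP1 peaks there (24.4 to 28.0), the lowest of the 10 parts, and 36.4% in part 9 (34.2 to 38.6), the highest. In part 10, which ends at the far telomere, they were 31.7% (29.7 to 33.7), the share of the whole list. The number of distant peaks itself was lowest in part 3, with 8.38% of them (7.71 to 9.09).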

How the data were processed

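Regions were taken from 2 lists that the authors deposited, 1 per antibody, each with chromosome, start, end, name and score. Per the submitters' processing notes, reads were aligned with Bowtie2 2.2.1 and the build was mm9. The KAP1 peak names begin with MACS, a peak caller, per the file itself. The labels and files state neither what the deposited scores measure nor the caller settings, control or read totals. Scores were compared only inside a list.

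Distances are bases between region edges. Chains were built over all KAP1 peaks with gaps of 10000 bp or less. Windows of 1 Mb were filled by midpoint. Intervals are 95%: Wilson for shares, binomial order statistics for medians, the square-and-add (Newcombe) rule for differences, Poisson for densities. The computation was checked on simulated lists. Members, groups and named regions were chosen with earlier results of these data known. Named regions are the 5 distant peaks highest in score, width, distance from H3K9me3 and distance from other KAP1 peaks, the 5 chains and windows with most of them, the chromosomes highest and lowest in density, and the 2 peaks nearest each limit. Other windows, chromosomes and the calls of 3 kb or more were named after their values were seen, as were the score classes and the flank numbers. The planned comparison of sequence and gene position was not run, since no mm9 genome was used here. Python 3.11.15, numpy 2.4.6, pandas 2.3.3, scipy 1.17.1 and matplotlib 3.10.9 were used.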

Additional observations from a re-analysis of the deposited data

How the results depend on the processing

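The lower score, the lower width and the higher single share of distant peaks kept their direction under every alternative run. Counting as overlapping only KAP1 peaks covered to 50% or more, the difference of medians was -160 bp for width and -49.8 for score, and the single share differed by 48.8 percentage points. With the upper 50% of H3K9me3 regions these were -164 bp, -52.3 and 47.5 points, the X share differed by -0.461 points and the richest 10% of windows held 27.4% of distant peaks. With the upper 50% of KAP1 peaks there were 2249 distant peaks, a score difference of -46.8, a single share difference of 47.5 points, share differences of 5.60 points for chromosome 15 and -3.06 for X, and 44.0% in the richest windows. With the limit at 50 kb there were 2574 distant peaks, a single share difference of 47.6 points, 41.8% in the richest windows and a chromosome 15 difference of -0.507 points, the only change of direction. With the limit at 5 kb the single share differed by 42.4 points and the chromosome 15 share by 3.48. Without the limit on chains, the single share differed by 42.8 points and the richest windows held 32.7%. Without chromosome 15 the single share differed by 46.7 points. In windows of 100 kb the richest 10% held 66.5%. Chosen after seeing the data, comparison within score classes gave -63.4 bp and 39.1 points. Also chosen then, the 4455 distant peaks without an unlisted H3K9me3 number at their flanks gave -163 bp, 49.3 points for single peaks, -3.24 for X and 36.1% in the richest windows. The cause was not tested beyond fewer peaks or regions entering by construction. The other 36 values stayed within 1.5 times the count or within the interval of the value. No paired analysis was possible because each antibody has a single library, which also leaves no replicate to omit. Unknown depth and scores close to the lowest listed limit what the list shows about weak sites.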

Other observations

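The KAP1 list also carries call numbers in genome order, which run to 36417 for 19549 listed peaks. Counting the numbers missing on both sides of a peak up to its listed neighbours gave a mean of 2.06 for distant peaks and 1.46 for overlapping peaks. None was missing on either side for 25.0% of distant peaks (interval 23.95 to 26.1) and 38.1% of overlapping peaks (37.0 to 39.1). Per Mb between the neighbours, 5.92 numbers were missing around distant peaks and 6.97 around overlapping peaks. Among single peaks the means were 2.42 for distant and 2.45 for overlapping peaks. The numbers say that calls were left out, not where they lie or how they scored.

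Peaks shared their exact width and score with another KAP1 peak more often at low scores. Among peaks with scores under 100, 80.8% of distant peaks (interval 79.5 to 82.0) and 74.99% of overlapping peaks (73.3 to 76.6) did so. At scores of 100 or more the shares were 39.3% (37.5 to 41.2) and 26.3% (25.2 to 27.4).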
